A study of Saccharomyces cerevisiae with 12 samples.

Results

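Budding yeast cells that lack both histone deacetylase genes HDA1 and RPD3 were compared with wild-type cells over all 5448 genes that had a symbol on the array. The comparison rests on 6 of the 12 arrays of the study, chosen by the genotype label: 3 arrays of the deacetylase mutant (hda1∆ rpd3∆) and 3 of the wild type. The spread used in the tests is estimated from all 12 arrays. The 50 measured genes of the mating lists are counted apart. The study measured messenger RNA of Saccharomyces cerevisiae on 12 Affymetrix arrays for yeast and 4 strains, to ask how 14-3-3 proteins and deacetylases act on genes that glucose represses. The other strains were the combined mutant (bmh1-170ts bmh2∆ hda1∆ rpd3∆), which lacks the deacetylases too and has reduced 14-3-3 function, and the bmh mutant (bmh1-170ts bmh2∆), in which both deacetylase genes are intact. All 4 strains have the genetic background W303-1A and grew exponentially in rich medium with 5% glucose at 30 °C. Each genotype is 1 strain, and its 3 arrays come from triplicate cultures.

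Histone deacetylases take acetyl groups off histone tails, which as a rule makes a promoter less active. Rpd3 is the catalytic subunit of a large and a small complex built around Sin3, and the DNA-binding protein Ume6 brings the large complex to genes of meiosis and of inositol synthesis. Hda1 works with Hda2 and Hda3 and is brought to promoters by the corepressor pair Tup1 and Cyc8, which also acts on glucose-repressed genes.

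Values are log2 signal, so a difference of 1 is 2-fold. HDA1 measured between 3.80 and 3.83 on the arrays of the deacetylase mutant, against 8.19, 8.23 and 8.25 on the wild-type arrays. RPD3 measured 3.91, 3.91 and 3.76 in the deacetylase mutant, against 9.70, 9.62 and 9.51 in the wild type. Both match the genotype labels. The highest value of a deleted gene, 4.13, is taken as the background level, and a gene whose mean lies at or below it in 1 strain is given a change of at least so many fold, from the background to the other strain. The spread between arrays had a median SD of 0.0681 in the deacetylase mutant and 0.135 in the wild type. On wild-type array 1, 61 genes lay 2-fold or more away from the average of its group mates, where its group mates had 5 and 6 such genes. Leaving out 1 array at a time moved no median of the lists outside the mating genes by more than 0.20. Counts of 2 or fewer members moved by at most 2 genes, except the falls of at least 2-fold in ribosome assembly. Where a larger count given here moved by over 1.5 times, the other count stands beside it. Of the genes used as strain markers, LEU2 fell by 1.85, CAN1 by 1.10 and URA3 by 0.86, while HIS3 was higher by 0.50. No source used here says whether marker alleles differ between the strains, and any such difference cannot be told apart from the deletions.

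Of the 5448 genes, 3892 (71.4%) passed an adjusted p under 0.05 in limma with Benjamini-Hochberg adjustment, and these are the genes said to rise or fall here. In the deacetylase mutant 1624 rose (29.8%) and 2268 fell (41.6%). The counts of each gene list are to be read beside these shares. Most of these changes were small: 2038 of the 3892 were under 1.5-fold. Large changes leaned the other way, with 480 genes at least 2-fold higher (8.81%) and 253 at least 2-fold lower (4.64%). With strain means below the background raised to it, these counts were 478 and 251. At 4-fold the counts were 140 higher and 30 lower, and at 8-fold 44 higher and 10 lower. Without the genes of the mating lists, 3845 of 5398 genes were called (71.2%), 471 of them at least 2-fold higher (8.73%) and 238 at least 2-fold lower (4.41%). The median over all genes was −0.09, so a list near that value moved with the array as a whole. Signal bore on these shares: of the 1362 dimmest genes 13.7% were at least 2-fold higher, against 5.07% of the 1362 brightest. In RNA from whole cultures, fewer cells that express a gene and less RNA per cell cannot be told apart, and 3 arrays per strain limit the precision.

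**Figure D1:**
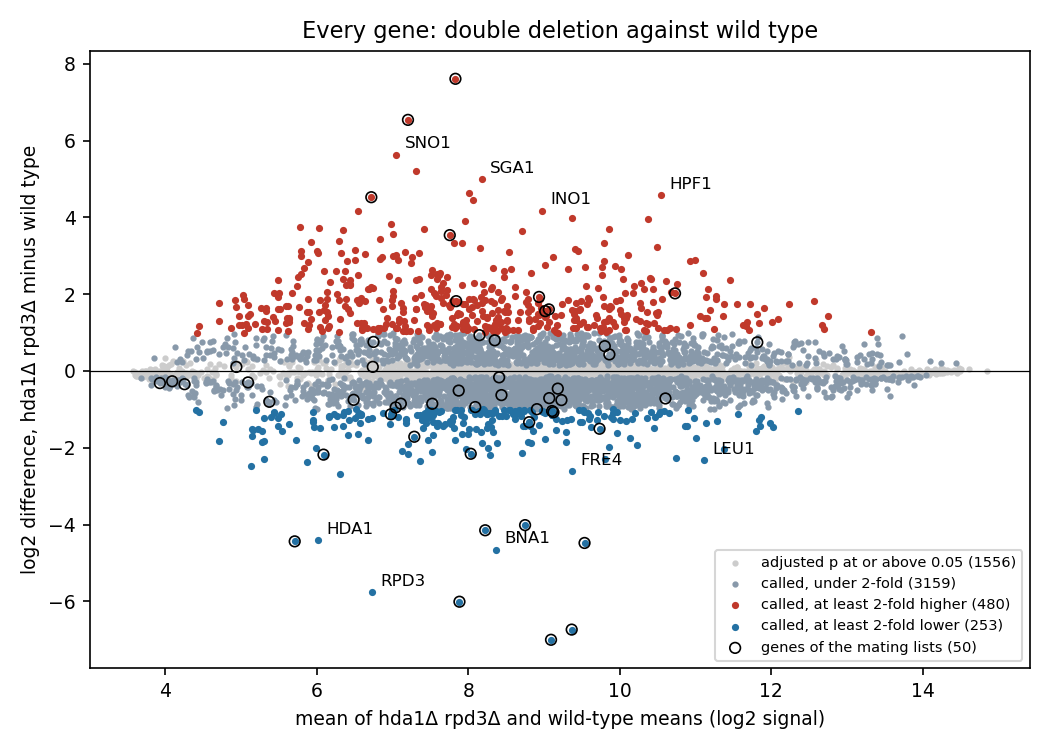
Each point is 1 of 5448 genes, with the mean of both strain means (log2 signal) on the x axis and the log2 difference of the deacetylase mutant minus the wild type on the y axis; circles mark the 50 genes of the mating lists. The 480 genes at least 2-fold higher outnumber the 253 at least 2-fold lower, and several of the most extreme points in both directions are mating genes.

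The largest rise outside the mating genes was in SNO1, which with SNZ1 makes the vitamin B6 synthase. SNO1 measured 9.95, 9.75 and 9.91 in the deacetylase mutant, against 4.57, 4.34 and 3.78 in the wild type, a difference of 5.64 ± 0.16 (SE, n = 3 per strain, adjusted p = 3.9e-11). SNZ1 measured 11.34, 11.42 and 11.32 in the deacetylase mutant, against 7.48, 7.42 and 7.26 in the wild type. The groups were far apart for both genes. Of the 17 genes of vitamin B6 and thiamine, 7 rose and 5 fell, with 4 rises and 1 fall of at least 2-fold and a median of 0.12. SNZ3, a relative of SNZ1 whose probe set is shared with other copies, was 1.24 higher and the thiamine transporter THI7 1.06 higher, while THI22, a relative of the thiamine genes, fell by 1.00.

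YNR064C, an epoxide hydrolase, measured 9.94, 10.03 and 9.78 in the deacetylase mutant, against 4.82, 4.34 and 4.95 in the wild type, a 37.1-fold rise. RSB1, a membrane protein that protects against long-chain sphingoid bases, was 4.45 ± 0.13 higher. GSP2, the weakly expressed relative of the Ran protein GSP1, averaged 11.71 in the deacetylase mutant and 8.01 in the wild type. SHC1, a sporulation relative of the activator of chitin synthase III, rose by 3.65 ± 0.15. YNL033W (3.92, on a shared probe set) and YGL081W (3.45) also rose. No gene among the 20 largest rises had overlapping groups, which the rule for naming them required.

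**Figure D2:**
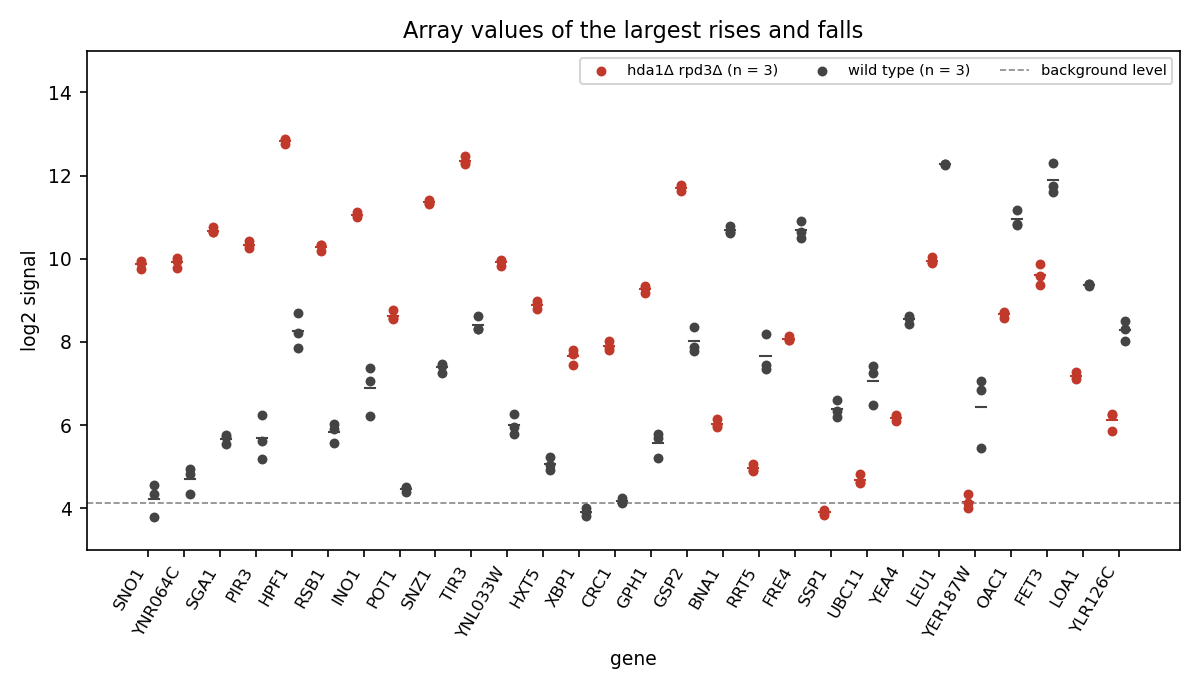
Points are log2 signals of single arrays for 16 of the largest rises and 12 of the largest falls outside the mating genes, with a bar at each mean and the background level as a dashed line. The 3 arrays of the deacetylase mutant lie together for every gene shown, and the widest wild-type spread is at YER187W, from 5.44 to 7.05.

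Genes of early meiosis, which Ume6 and Rpd3 repress in growing cells, were mostly higher. Of 33 measured, 25 rose and 4 fell (at least 2-fold, 12 and 1), with a median of 0.76. With means below the background raised to it, 11 rose and 0 fell at least 2-fold. IME2, the meiotic protein kinase, measured 8.56, 8.42 and 8.68 in the deacetylase mutant, against 5.34, 5.64 and 5.62 in the wild type (3.02 ± 0.092, adjusted p = 7.5e-11). MND1, needed for strand invasion between homologues, measured 6.95, 7.23 and 7.32 in the deacetylase mutant, against 4.54, 4.42 and 4.50 in the wild type. The groups of both genes were well separated. Among recombination and synapsis genes the recombinase DMC1 stood at 2.08, the axis protein HOP1 at 1.92, the synapsis initiator ZIP2 at 1.72 and SPO11, which cuts the DNA, at 1.54. Others of the same kind were lower: HFM1 fell by 0.63, REC107 by 0.55 and MSH5 by 0.43, and REC104 was not called at 0.29. RIM4, an RNA-binding protein of meiosis, rose by 2.49 and UME6 itself by 0.85. The master regulator IME1 was not called, at 6.34, 6.34 and 6.47 in the deacetylase mutant, against 6.58, 6.42 and 6.18 in the wild type (−0.01, adjusted p = 0.95). MAM1, which ties sister kinetochores together, averaged 3.90 in the deacetylase mutant, at background, and 4.90 in the wild type. The list holds dim genes: its median signal was 6.02 in the deacetylase mutant and 4.91 in the wild type.

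Genes of middle and late sporulation did not follow. Of 44 measured, 9 rose and 18 fell (at least 2-fold, 2 and 7), with a median of −0.17, or −0.09 with means below the background raised to it. SGA1, the glucoamylase that breaks down glycogen in sporulating cells, stood out at 10.75, 10.64 and 10.64 in the deacetylase mutant, against 5.55, 5.77 and 5.71 in the wild type, a 32.0-fold rise (adjusted p = 8.5e-14). SPS100, a spore wall protein, measured 7.61, 7.62 and 7.63 in the deacetylase mutant, against 5.42, 5.06 and 5.28 in the wild type. Both were higher on every array. SSP1, which shapes the prospore membrane, measured 3.97, 3.89 and 3.84 in the deacetylase mutant, against 6.20, 6.61 and 6.33 in the wild type, a fall of at least 4.75-fold to the background. SPO21, a spindle pole body protein of meiosis, fell by 2.01, SPS4 by at least 2.82-fold, and the sporulation kinase SPS1 by 1.79, which on wild-type array 1 lay 1.12 below its group mates. NDT80, the activator of middle genes, fell by 0.76. UBC11, a ubiquitin-conjugating enzyme outside the list, fell by 2.37 and RRT5 by 2.69.

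INO1, which makes inositol phosphate and is the textbook target of Ume6 and Sin3 with the Ino2 and Ino4 activators, measured 11.11, 11.05 and 11.01 in the deacetylase mutant, against 6.21, 7.38 and 7.05 in the wild type. The rise was 4.18 ± 0.21 (adjusted p = 6.3e-09) and 3.84 without wild-type array 1. Of the 21 genes of inositol and phospholipid synthesis 11 rose and 8 fell (at least 2-fold, 2 and 1), with a median of 0.33. OPI3, a methyltransferase of phosphatidylcholine synthesis, measured 12.72, 12.74 and 12.70 in the deacetylase mutant, against 10.77, 11.38 and 11.10 in the wild type. CHO1, the phosphatidylserine synthase, was 0.95 higher and the inositol permease ITR1 0.75 higher. The activator gene INO2 fell by 0.75 and the repressor gene OPI1 by 0.36, with overlapping groups for OPI1. The activator INO4 was not called, at 6.68 in the deacetylase mutant and 6.61 in the wild type (adjusted p = 0.52). INM1, an inositol monophosphatase, fell by 1.29.

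The genes that yeast needs to grow on ethanol, fatty acids or lactate, and which glucose represses, were higher as a group while glucose was present. Adr1 activates many of them, and 16 of 21 Adr1-dependent genes rose and 1 fell (at least 2-fold, 10 and 1), with a median of 0.85. POT1, the thiolase of fatty acid oxidation, measured 8.59, 8.76 and 8.56 in the deacetylase mutant, against 4.50, 4.39 and 4.50 in the wild type (4.17 ± 0.087, adjusted p = 2.5e-12). ADY2, an acetate transporter, measured 8.01, 8.27 and 8.17 in the deacetylase mutant, against 5.26, 5.05 and 5.02 in the wild type. Neither gene's groups came near each other. ALD4, the mitochondrial aldehyde dehydrogenase, rose by 2.65, the acetyl-CoA synthetase ACS1 by 1.85, and POX1, the first enzyme of peroxisomal oxidation, by at least 3.09-fold from the background. The activator gene ADR1 itself measured 8.25, 8.13 and 8.39 in the deacetylase mutant, against 5.97, 6.63 and 6.43 in the wild type. ATO3, a likely ammonium exporter, fell by 1.27, and the catalase CTA1 was not called at −0.41.

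Gluconeogenesis and the glyoxylate cycle, which rebuild sugar from small carbon compounds, had the highest median of the metabolic lists, 1.62. Of its 17 genes 14 rose and 1 fell (at least 2-fold, 11 and 0). CRC1, the carnitine carrier, measured 8.01, 7.88 and 7.80 in the deacetylase mutant, against 4.14, 4.24 and 4.14 in the wild type. SIP4, an activator of gluconeogenic genes, measured 8.67, 8.83 and 8.87 in the deacetylase mutant, against 5.16, 4.99 and 5.48 in the wild type. Both genes were weak in the wild type and moderate in the deacetylase mutant. SFC1, a mitochondrial succinate and fumarate carrier, was 3.11 higher, the lactate transporter JEN1 2.59, the peroxisomal citrate synthase CIT2 2.37 and the fructose bisphosphatase FBP1 2.05. The list did not move as one: the isocitrate lyase ICL1 was not called, at 7.66, 7.70 and 7.62 in the deacetylase mutant, against 7.57, 7.84 and 7.72 in the wild type, and the malic enzyme MAE1 fell by 0.91.

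Glucose signalling and sugar genes moved in both directions. MIG1, which encodes the main DNA-binding glucose repressor, measured 7.74, 7.67 and 7.50 in the deacetylase mutant, against 9.74, 9.77 and 9.80 in the wild type, a 4.39-fold fall (adjusted p = 7.3e-11). Its relative MIG2 fell by 1.31 and the glucose-sensing regulator STD1 by 1.26. Among 20 genes of hexose transport and its control, 11 rose and 6 fell, 4 of them at least 2-fold in each direction. The transporter HXT5, which is made in slow growth, measured 8.97, 8.79 and 8.91 in the deacetylase mutant, against 5.22, 5.05 and 4.91 in the wild type. HXT1, the low-affinity transporter induced by high glucose, measured 11.37, 11.16 and 11.40 in the deacetylase mutant, against 12.54, 12.72 and 12.73 in the wild type. These transporters moved in opposite directions, HXT5 up by 3.83 and HXT1 down by 1.35. HXT9 rose by 2.63 and HXT11 by at least 2.77-fold from the background. Of 16 genes for other sugars 13 rose and 1 fell, with a median of 0.89 and 7 at least 2-fold higher; 4 were so without the probe sets shared between copies. MAL32, a maltase read by a shared probe set, rose by 2.13, GAL3 by 1.35 and the galactokinase GAL1 by 1.12, while the invertase gene SUC2 rose by only 0.27.

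**Figure D3:**
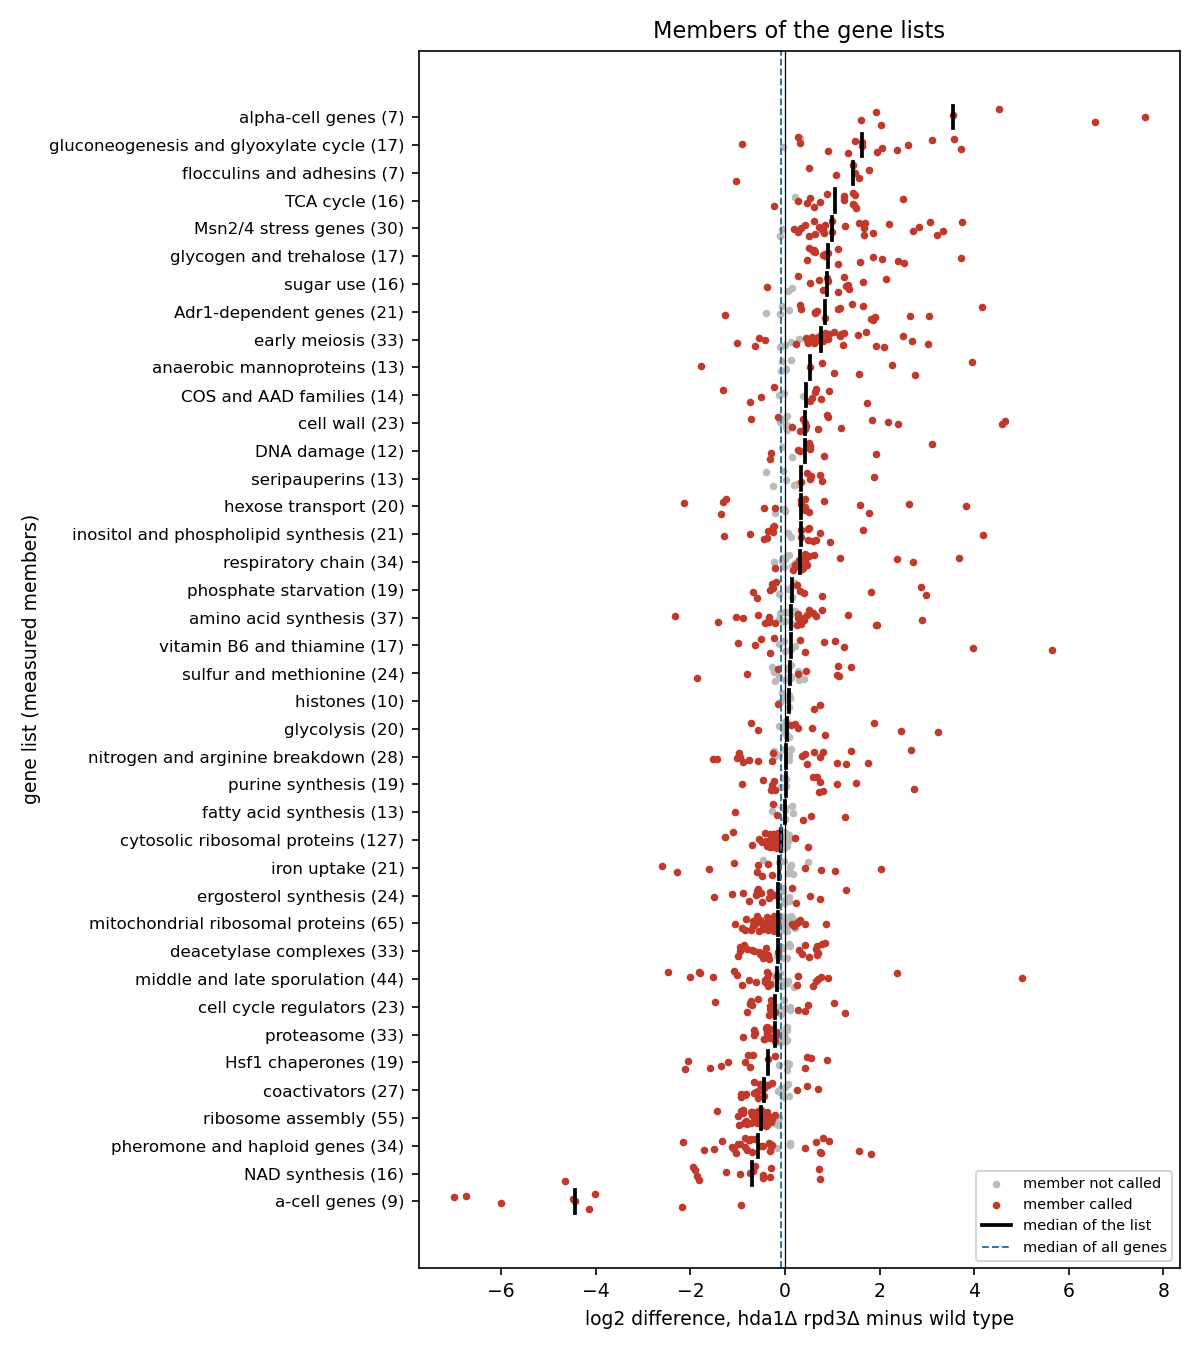
Each point is 1 member of a gene list, placed by its log2 difference of the deacetylase mutant minus the wild type; black bars are list medians and the dashed line is the median of all genes, −0.09. Members at background in 1 strain are drawn at their measured difference. Gluconeogenesis (1.62), flocculins and adhesins (1.44), TCA cycle (1.06) and Msn2/4 stress genes (1.00) have the highest medians after the alpha-cell genes. NAD synthesis (−0.71) has the lowest after the a-cell genes.

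Of 20 genes of glycolysis 8 rose and 2 fell (at least 2-fold, 3 and 0), with a median of 0.04. GLK1, the glucokinase, measured 12.19, 12.05 and 12.08 in the deacetylase mutant, against 9.89, 8.48 and 8.23 in the wild type. HXK1, the hexokinase that glucose represses, measured 9.71, 9.68 and 9.67 in the deacetylase mutant, against 7.71, 7.03 and 6.99 in the wild type. HXK2, the hexokinase used on glucose, measured 12.74, 12.81 and 12.67 in the deacetylase mutant, against 13.29, 13.27 and 13.35 in the wild type. The first 2 were higher on every array and HXK2 was lower (−0.57, adjusted p = 1.3e-06). TDH1, an isoform of glyceraldehyde phosphate dehydrogenase, was 1.87 higher, while the main isoform TDH3 was not called at 0.00. The enolase ENO1 rose by 0.85 and the pyruvate kinase isoform PYK2 fell by 0.71.

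Storage carbohydrate genes rose without exception in the list: all 17 genes of glycogen and trehalose were called higher, 8 of them at least 2-fold, with a median of 0.90. GPH1, the glycogen phosphorylase, measured 9.30, 9.18 and 9.35 in the deacetylase mutant, against 5.80, 5.68 and 5.22 in the wild type (3.71 ± 0.13, adjusted p = 1.8e-10). The phosphatase subunit GAC1 rose by 2.51, the branching enzyme GLC3 by 2.39 and the glycogenin GLG2 by 2.05, so genes of synthesis and breakdown were both among the largest. On wild-type array 1 the list stood 0.46 above the other wild-type arrays at the median, and without that array 11 genes were at least 2-fold higher.

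In the TCA cycle 14 of 16 genes rose and 1 fell (at least 2-fold, 8 and 0), with a median of 1.06. LSC2, a succinyl-CoA ligase subunit, measured 10.93, 11.11 and 10.99 in the deacetylase mutant, against 8.78, 8.40 and 8.36 in the wild type. The aconitase ACO1 rose by 1.50, the isocitrate dehydrogenase subunit IDH1 by 1.47 and the succinate dehydrogenase subunit SDH2 by 1.49. ACO1 measured 11.77 on wild-type array 1, against 10.76 and 10.67 on the other wild-type arrays, and the list stood 0.48 higher there at its median. Respiratory chain genes moved less, with 22 of 34 higher and 1 lower (at least 2-fold, 4 and 0), and a median of 0.31. Those 4 were NDE2, an external NADH dehydrogenase (3.68), COX5B, the low-oxygen form of a cytochrome oxidase subunit (2.70), the cytochrome c isoform CYC7 (2.36) and the internal dehydrogenase NDI1 (1.17). The main isoforms COX5A and CYC1 were not called, at 0.20 and −0.06.

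Of 30 genes of the general stress response under Msn2 and Msn4, 28 rose and none fell, 15 of them at least 2-fold, with a median of 1.00. XBP1, a repressor made under stress, averaged 7.66 ± 0.19 in the deacetylase mutant (SD, n = 3) and 3.91 ± 0.086 in the wild type, a rise of at least 11.5-fold from the background. HSP26, a small heat shock protein, measured 9.53, 9.64 and 9.58 in the deacetylase mutant, against 6.97, 5.98 and 5.79 in the wild type. HSP12, a membrane-protecting protein, measured 11.16, 11.10 and 11.07 in the deacetylase mutant, against 10.09, 7.56 and 7.58 in the wild type. For HSP12 wild-type array 1 lay over 2 log2 units above the others, and the difference was 2.70 with it and 3.54 without it. The glutamate decarboxylase GAD1 rose by 3.20 and the transketolase TKL2 by 3.07. Without wild-type array 1 the list had 17 genes at least 2-fold higher and a median of 1.18. Chaperone genes under Hsf1 went the other way, with 11 of 19 lower and 4 higher (at least 2-fold, 5 and 0), and a median of −0.35. Of the 19, 7 were higher when wild-type array 1 was left out. SIS1, an Hsp40 co-chaperone, measured 10.45, 10.35 and 10.27 in the deacetylase mutant, against 12.24, 12.35 and 12.62 in the wild type. APJ1, also of the Hsp40 family, fell by 2.11 and HSP82, an Hsp90 gene, by 0.84, while SSA1, an Hsp70 gene, was 0.88 higher. BTN2, a protein that sorts misfolded proteins, was 1.58 lower, or 2.28 lower without wild-type array 1.

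Among 12 genes of the DNA damage response 8 rose and 2 fell, with a median of 0.42. RNR3, a ribonucleotide reductase subunit that Tup1 and Cyc8 hold down, measured 10.10, 10.17 and 10.01 in the deacetylase mutant, against 6.90, 7.14 and 6.93 in the wild type. HUG1, an inhibitor of that enzyme, measured 8.61, 8.61 and 8.58 in the deacetylase mutant, against 6.73, 6.71 and 6.61 in the wild type. These 2 were the only members at least 2-fold higher. The checkpoint kinase DUN1 rose by 0.83 and RFX1, which represses the reductase genes, by 0.53.

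Cell surface genes held several of the largest rises. PIR3, a cell wall protein with internal repeats, measured 10.42, 10.27 and 10.32 in the deacetylase mutant, against 6.25, 5.62 and 5.19 in the wild type. HPF1, a mannoprotein, measured 12.87, 12.76 and 12.86 in the deacetylase mutant, against 7.86 to 8.69 in the wild type, which is the brightest of the 20 largest rises. Of 23 cell wall genes 15 rose and 2 fell (at least 2-fold, 6 and 0), with a median of 0.43. The glucan synthase GSC2 rose by 2.40, the kinase KDX1 by 2.17 and PST1 by 1.83, while the glucan synthase FKS1 was not called at 0.05. All 7 genes of the flocculin and adhesin list were called: 6 rose and 1 fell. The list also counts FLO8, an activator gene rather than a flocculin (0.51), and FIG2 (1.56). FLO11, the flocculin of filamentous growth, measured 8.61, 8.54 and 8.53 in the deacetylase mutant, against 6.51, 6.99 and 6.83 in the wild type. FLO10 rose by 1.47 and FLO9, on a shared probe set, by 1.44, whereas the agglutinin subunit AGA1, also a mating gene, fell by 1.04. Anaerobic mannoprotein genes included TIR3, at 12.46, 12.27 and 12.32 in the deacetylase mutant, against 8.30, 8.61 and 8.30 in the wild type. That list is not made of mannoproteins alone, since it counts ROX1, and it shares PAU24 with the seripauperins. Of its 13 genes 7 rose and 1 fell, with a median of 0.53. Leaving out wild-type array 1 gave 3 falls and a median of 0.34. The 1 fall was ROX1, the repressor of low-oxygen genes, by 1.77, and its target ANB1 rose by 2.74. The seripauperins, 13 near-identical genes whose copies the probe sets may not separate, had 7 rises and no falls at a median of 0.34, with 1 rise of at least 2-fold, in PAU3 (1.88). Without wild-type array 1 there were 2 falls and a median of 0.23, and without array 1 of the deacetylase mutant 4 rises.

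Many flocculins, seripauperins and sugar genes lie near chromosome ends, so genes were also grouped by their order from the nearer end in the RefSeq gene table. Among the 10 outermost genes of each arm 52 of 235 were at least 2-fold higher (22.1%) and 13 at least 2-fold lower (5.53%). In ranks 11 to 20 the shares were 14.1% higher and 7.22% lower of 291 genes, and in ranks 21 to 30 they were 9.40% and 3.36% of 298. Farther in they were 7.77% and 4.52% of 4621 genes. The outermost genes were dimmer, with a median wild-type signal of 7.06 against 8.91 for the inner genes, and 52 of the 235 were read by probe sets that may bind other copies. The part of signal and shared probe sets in the higher share at the ends was not tested. Members of the COS and AAD families near the ends moved in both directions, with 7 rises and 4 falls among 14, from AAD10 at 1.74 to COS7 at −1.30. The falls numbered 2 without array 1 or array 3 of the deacetylase mutant, and without wild-type array 1 the median was 0.29 in place of 0.45.

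**Figure D4:**
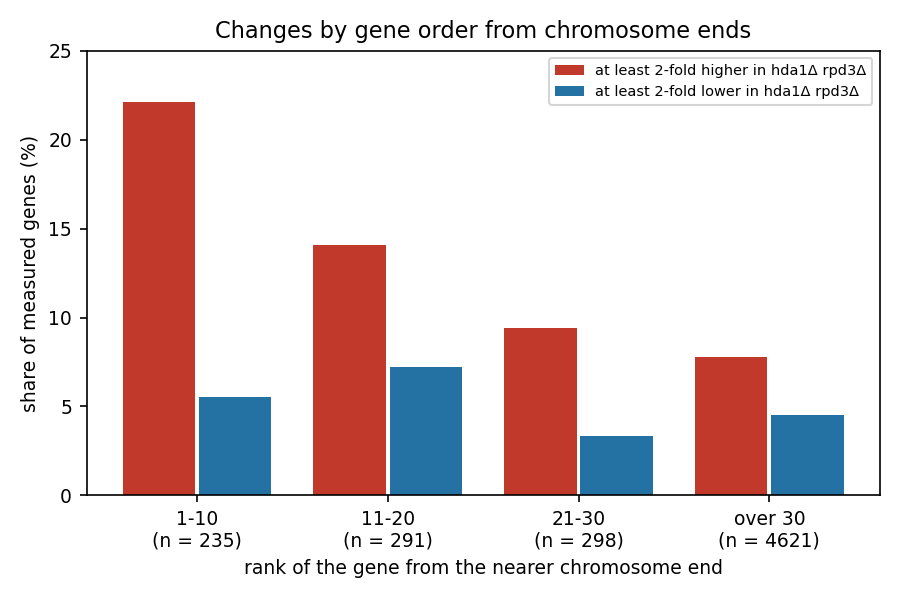
Bars give the percentage of measured genes that were called and at least 2-fold higher (red) or lower (blue) in the deacetylase mutant, by the rank of the gene from the nearer chromosome end. The share of higher genes is 22.1% in the 10 outermost ranks and 7.77% beyond rank 30, and the share of lower genes lies between 3.36% and 7.22% in all 4 groups.

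The largest fall outside the deleted and mating genes was in BNA1, an enzyme that makes NAD from tryptophan. BNA1 measured 5.99, 6.15 and 5.96 in the deacetylase mutant, against 10.80, 10.62 and 10.65 in the wild type, a 25.2-fold fall (adjusted p = 1.4e-12). Genes of NAD synthesis were mostly lower: 14 of 16 fell and 2 rose (at least 2-fold, 6 and 0), with a median of −0.71. TNA1, the nicotinic acid permease, measured 9.34, 9.24 and 9.18 in the deacetylase mutant, against 11.07, 11.32 and 11.20 in the wild type. BNA2, the first enzyme of the tryptophan route, measured 4.84, 4.70 and 4.93 in the deacetylase mutant, against 6.60, 6.63 and 6.67 in the wild type. All 3 genes were lower on every array. The salvage enzyme NPT1 fell by 1.24, the nicotinamide riboside transporter NRT1 by 1.90 and BNA6 by 1.86, while BNA3 and the nicotinamidase PNC1 rose by 0.73 and 0.71. The neighbours of BNA1 on 1 side in gene order were lower too, MDE1 by 0.83 next to it and LSM8 by 1.13 at 2 places. No measured value was found at those places on its other side. Beside the deleted genes, AAD14 next to RPD3 fell by 0.73 and MDJ2 at 2 places from RPD3 by 1.22, while ARK1 next to HDA1 was 0.49 higher. PEX6, next to RPD3 on the side of MDJ2, was not called (0.09, adjusted p = 0.45). RCM1, next to HDA1 on the other side from ARK1, and FAP1 beyond it were not called either, at −0.20 and −0.18.

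Genes of amino acid synthesis moved in both directions. Of 37 genes 15 rose and 10 fell (at least 2-fold, 4 and 3), with a median of 0.13. HIS4, of histidine synthesis, measured 12.44, 12.50 and 12.41 in the deacetylase mutant, against 9.67, 9.61 and 9.36 in the wild type. LEU1, of leucine synthesis, measured 9.89, 9.93 and 10.04 in the deacetylase mutant, against 12.29, 12.27 and 12.26 in the wild type. HIS4 was 7.48-fold higher and LEU1 4.99-fold lower. The arginine genes ARG1 and ARG4 rose by 1.95 and 1.92 and LYS1 by 1.33. In histidine synthesis HIS7 fell by 0.33 and HIS1 was not called. Of other genes of branched-chain amino acids, the aminotransferase BAT1 fell by 1.42, ILV3 fell by 1.04 and ILV2 fell by 0.88. OAC1, a mitochondrial carrier of a leucine precursor, fell by 2.28, and LEU2 is given above. In the same routes ILV6 rose by 0.65, LEU4 by 0.47 and ILV1 by 0.40, and the general activator GCN4 was not called, at −0.04.

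Nutrient uptake genes moved gene by gene. In iron uptake 4 of 21 genes rose and 9 fell (at least 2-fold, 2 and 4), with a median of −0.13. With wild-type array 1 left out, 8 genes were called higher and the median turned to 0.07. The median was −0.22 without wild-type array 2 and −0.06 without array 3 of the deacetylase mutant. The multicopper oxidase FET3 measured 9.88, 9.58 and 9.37 in the deacetylase mutant, against 12.31, 11.74 and 11.60 in the wild type. The reductase FRE4 measured 8.14, 8.03 and 8.05 in the deacetylase mutant, against 10.49, 10.64 and 10.90 in the wild type. Both were lower on every array, while the cell wall siderophore protein FIT3 was 2.03 higher. The permease FTR1 fell by 1.08, or by 0.78 without wild-type array 1. Among 19 phosphate starvation genes 7 rose and 6 fell (at least 2-fold, 3 and 0), and 3 fell without array 1 of the deacetylase mutant. GIT1, a glycerophosphoinositol permease, rose by 2.98, the sodium phosphate symporter PHO89 by 2.88 and the acid phosphatase PHO5 by 1.81, but the main transporter PHO84 was not called at 0.06. Of 28 genes of nitrogen and arginine breakdown 11 rose and 10 fell, beside 29.8% and 41.6% of all genes. UGA2 of GABA breakdown was highest at 2.67 and the repressor gene DAL80 lowest at −1.53. GZF3, a GATA repressor of nitrogen genes outside that list, fell by 2.09. In purine synthesis 8 of 19 rose and 7 fell, with ADE17 at 2.72 and the glycine cleavage gene GCV2 at 1.49. In sulfur metabolism 6 of 24 rose and 3 fell, with a median of 0.12. With wild-type array 1 left out, 15 genes were called higher, at a median of 0.25. Leaving out the third wild-type array gave 5 falls and a median of 0.06, and leaving out the second a median of 0.05. Of the named members, MET14 fell by 1.86, or by 1.50 without wild-type array 1, STR3 rose by 1.39, or by 2.04 without it, and MET2 by 1.13, or by 1.90 without it. Among 24 ergosterol genes 5 rose and 12 fell, with ERG26 at −1.49, ERG5 at −1.13 and the reductase isoform HMG2 at 1.29. In fatty acid synthesis 3 of 13 rose and 3 fell, or 5 without wild-type array 1, with the elongase ELO1 highest at 1.28 and the activating enzyme FAA3 lowest at −1.05.

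Apart from the deleted genes, only 1 gene of the chromatin lists changed at least 2-fold, though coactivator genes were mostly lower. Of 33 genes of deacetylase complexes and corepressors 10 rose and 16 fell (at least 2-fold, 0 and 1), with a median of −0.15. That split is near the 29.8% and 41.6% of all genes. The scaffold gene SIN3 and the Hda1 partner HDA3 were not called, at −0.08 and −0.17, and HDA2 fell by 0.36. The deacetylase gene HOS1 averaged 6.01 ± 0.22 in the deacetylase mutant (SD, n = 3) and 7.01 ± 0.080 in the wild type. SIR2, the NAD-dependent deacetylase of silent chromatin, measured 8.56, 8.39 and 8.60 in the deacetylase mutant, against 9.28, 9.52 and 9.57 in the wild type. SUM1 and RFM1, which with the deacetylase HST1 repress middle sporulation and NAD genes, fell by 0.88 and 0.94, and HST1 by 0.52. HOS1 had the 1 fall of at least 2-fold in the list, just past that size; there were 3 such falls without wild-type array 1, and 0 without wild-type array 3 or array 3 of the deacetylase mutant. The list median was −0.07 without array 1 of the deacetylase mutant. The corepressor gene TUP1 was 0.77 higher and CYC8 fell by 0.46. Of 27 coactivator genes, the acetyltransferase and remodelling complexes, 3 rose and 17 fell, none at least 2-fold, with a median of −0.44. EPL1 of the NuA4 complex fell by 0.94 and NGG1 of SAGA by 0.93, the acetyltransferase gene GCN5 was not called at 0.09, and the remodeller SNF2 was 0.71 higher. Of 10 histone genes 2 rose, the linker histone HHO1 by 0.74 and the centromeric CSE4 by 0.62, and 1 fell, HHT1 by 0.14; the others lay between −0.10 and 0.11.

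In ribosome assembly 48 of 55 genes fell and none rose, 1 of them at least 2-fold, with a median of −0.50. UTP5, of the small-subunit processome, measured 10.24, 10.18 and 10.10 in the deacetylase mutant, against 11.26, 11.76 and 11.81 in the wild type. This list stood 0.51 below the other wild-type arrays on wild-type array 1, and without that array the median was −0.65 and 9 genes were at least 2-fold lower. Cytosolic ribosomal protein genes stayed at the array's median, −0.09, with 2 of 127 higher and 43 lower (at least 2-fold, 0 and 2); these were RPS14B at −1.27 and RPS9A at −1.11. Over all genes 29.8% rose and 41.6% fell. Mitochondrial ribosomal protein genes had 7 of 65 higher and 31 lower, with a median of −0.15. The higher genes numbered 12 when wild-type array 1 was left out, 4 when the second wild-type array was, and 3 without array 2 of the deacetylase mutant. The proteasome had 19 of 33 lower and none higher, with a median of −0.22. Among 23 cell cycle regulators 5 rose and 12 fell, beside 29.8% and 41.6% of all genes. The mitotic cyclin gene CLB1 was 1.28 higher, its close relative CLB2 fell by 0.79 and the cyclin PHO80 fell by 1.49.

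The mating genes are given apart because they mark cell type. W303-1A has mating type a. On the wild-type arrays the a-cell list had a median signal of 10.76 and the alpha-cell list 5.99. AFB1 and HMRA2, which the alpha-cell list counts, were not low there, at 9.72 and 8.26. HMRA2 is named for the HMR locus, as is HMRA1, which the a-cell list counts. MATA1, MATALPHA1 and MATALPHA2 had no value of their own. The names HMRA1, HMRA2 and HMLALPHA1 therefore do not tell which copy of these genes was read. MF(ALPHA)1, the gene of the alpha-factor pheromone, measured 11.64, 11.67 and 11.61 in the deacetylase mutant, against 3.95, 4.03 and 4.10 in the wild type. STE2, the alpha-factor receptor of a cells, measured 5.85, 6.13 and 6.01 in the deacetylase mutant, against 12.63, 12.84 and 12.74 in the wild type. All 7 genes of the alpha-cell list rose and all 9 of the a-cell list fell. Their medians were 3.54 and −4.15 once means below the background were raised to it. In the combined mutant, which lacks the same deacetylases, MF(ALPHA)1 averaged 3.81, against 4.09 in the bmh mutant, and STE2 averaged 10.88, against 12.62. So the alpha-cell list as a whole rose in the deacetylase mutant and not in the combined mutant. Against the bmh mutant its median there was −0.29, though its member SAG1 was at 1.38. The fall of the a-cell list was smaller in the combined mutant but present, at a median of −1.38 against the bmh mutant. BAR1 was at −3.27, MFA1 at −2.13 and STE6 at −1.97, while AGA2 was at −0.12. HMLALPHA1 averaged 10.48 in the deacetylase mutant, against 3.93 in the wild type, 3.82 in the combined mutant and 3.93 in the bmh mutant. HMRA1 averaged 3.49 in the deacetylase mutant, at background, against 7.93, 7.66 and 7.98 in the same order. By these genes, MF(ALPHA)1 and STE2, the deacetylase mutant alone had the profile of alpha cells, though all 4 strains are labelled W303-1A. The cause was not tested. Cell type and the deletions cannot be told apart on these 6 arrays, for mating genes or for any other gene that differs between a and alpha cells. Of 34 genes of pheromone response and haploid function, which both cell types use, 8 rose and 23 fell (at least 2-fold, 2 and 7), with a median of −0.57. SST2, which dampens the pheromone signal, fell by 2.16, the G protein subunit GPA1 by 1.51 and the activator STE12 by 1.33, and in the combined mutant the same genes stood 2.63, 1.73 and 1.40 below the bmh mutant.

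The pair of combined and bmh mutants carries the same deletions in cells with reduced 14-3-3 function and shares no array with the pair above, so it offers a separate measurement. There 4088 genes were called (75.0%), 549 at least 2-fold higher (10.1%) and 268 at least 2-fold lower (4.92%). Of the 480 genes at least 2-fold higher in the deacetylase mutant, 376 were so in the combined mutant, which is 78.3% of the first list and 68.5% of the second. Of the 253 at least 2-fold lower, 146 were so, 57.7% and 54.5% of the lists. Called in the opposite direction were 8 of the 480 and 7 of the 253. Across the 5448 genes the differences correlated at a Pearson r of 0.834 and a Spearman rho of 0.841, as a description, since genes are not independent replicates.

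Some of the largest changes had a like size in both pairs. Of the 480 genes at least 2-fold higher in the deacetylase mutant, 243 were called for a difference between the pairs. Of the 253 at least 2-fold lower, 89 were, against 23.7% of all genes. Both sets were chosen by size on arrays that also enter this test, which favours a share above that of all genes. BNA1 fell by 4.66 in the deacetylase mutant and by 4.41 in the combined mutant, and YEA4, a transporter for chitin synthesis, by 2.36 and 2.11. INO1 rose by 4.18 in the deacetylase mutant and by 4.84 in the combined mutant, IME2 by 3.02 and 3.33, RNR3 by 3.10 and 3.08, and UGA2 by 2.67 and 2.52. None of these 6 genes was called in the test of the difference between the pairs. HPF1 and PIR3 were called in it: HPF1 rose by 4.58 in the deacetylase mutant and by 2.65 in the combined mutant, and PIR3 by 4.65 and 2.41.

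The difference between the pairs was called for 1289 genes (23.7%), 219 of them at least 2-fold (4.02%). In 15 of these 219 the gene was in a mating list. Outside them, HIS4 rose by 2.90 in the deacetylase mutant and was 0.27 higher in the combined mutant (difference −2.64). LEU1 fell by 2.32 in the deacetylase mutant and was 0.24 higher in the combined mutant (difference 2.57). The levels show where the pairs part: HIS4 averaged 12.45 in the deacetylase mutant, 11.48 in the combined mutant, 11.21 in the bmh mutant and 9.55 in the wild type. LEU1 averaged 9.95 in the deacetylase mutant, 10.35 in the combined mutant, 10.11 in the bmh mutant and 12.27 in the wild type. For both genes the wild type stood apart from the 3 mutants. LEU2 also changed sign between the pairs, at −1.85 in the deacetylase mutant and 1.01 in the combined mutant, as did the iron gene FET3 (−2.27 and 0.69). The iron gene FRE4 fell by 2.61 in the deacetylase mutant and differed little in the combined mutant, at 0.23 ± 0.105 (SE). FDH1, a formate dehydrogenase, rose by 0.64 in the deacetylase mutant and by 3.91 in the combined mutant. Lists differed in the same way: the Adr1-dependent median was 0.85 in the deacetylase mutant and 2.03 in the combined mutant, with the difference called for 16 of 21 genes, against 23.7% of all genes. In amino acid synthesis the difference was called for 26 of 37 genes, at medians of 0.13 and −0.20.

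**Figure D5:**
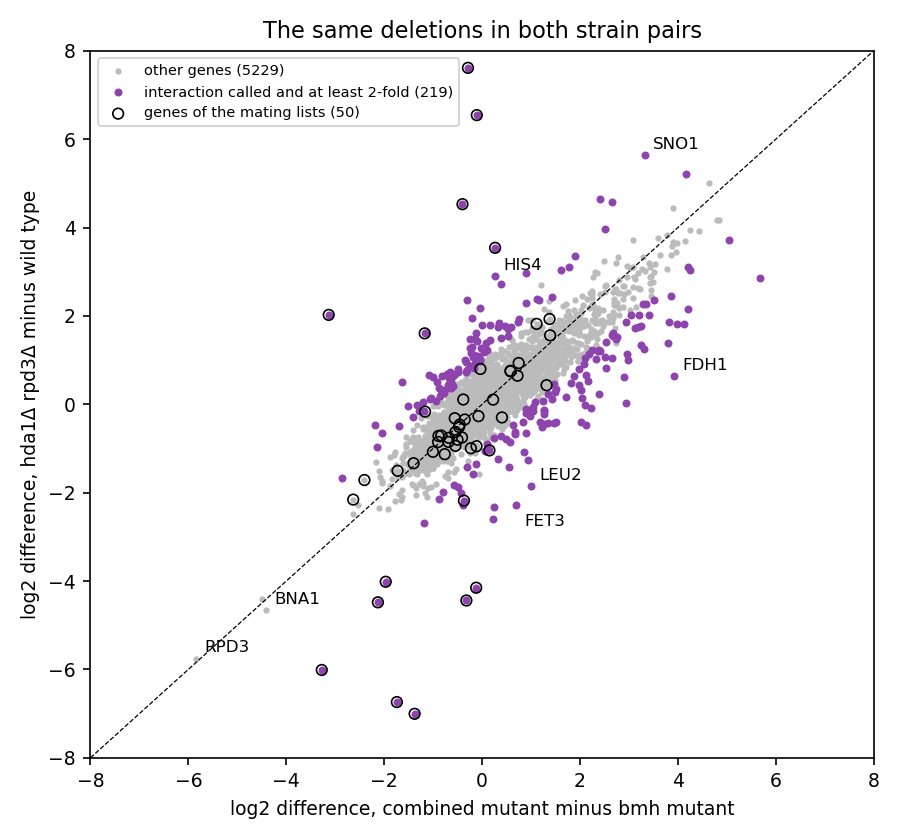
Each point is 1 gene, with the log2 difference of the combined minus the bmh mutant on the x axis and of the deacetylase mutant minus the wild type on the y axis; purple points differ between the pairs (called and at least 2-fold), and circles are the mating genes. Most genes lie along the diagonal (Pearson r 0.834), BNA1 and RPD3 are low in both pairs, and the 15 mating genes among the purple points include those farthest from it.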

How the data were processed

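RNA of 12 cultures was measured on Affymetrix Yeast Genome 2.0 arrays. The authors deposited normalized log2 values; the submitters' processing notes name RMA and affy, and no source used here gives a version. The table used here held 5715 probe sets, and no further normalization was applied. A single gene symbol was found for 5497 and none for 218, 12 symbols were brought up to date, and the brightest probe set per gene was kept (49 dropped), which left 5448 genes. For 100 of them the probe set ends in _s_at and for 18 in _x_at, which may bind near-identical copies. Groups follow the genotype label; the source names of the hdac and combined arrays are given the other way round, and HDA1 and RPD3 signals match the genotype.

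Differences were tested with limma 3.58.1 in R 4.3.3 (statmod 1.5.0): lmFit with 1 mean per strain over the 12 arrays, then eBayes at its defaults (8 residual degrees of freedom, 3.82 prior), with Benjamini-Hochberg adjustment across the 5448 genes. Standard errors are those of the fit, and all p-values measure the spread between cultures. The background is the top of 18 signals of deleted genes (BMH2, HDA1, RPD3) in strains without them (lowest 3.68). The model was tested on simulated data. Members and gene lists were chosen with earlier results of these data known, and the ribosomal protein lists were corrected after their values were seen. Named are the deleted genes, the 20 largest rises and 15 largest falls outside the mating lists (called, groups not overlapping, above background in 1 group), up to 8 called members per list with the largest change, members not called, the called mating genes and 10 interaction genes. Beyond that rule, CYC8, HDA2, HST1, LEU4, MAE1, ATO3, MAM1, NDT80, OPI1, PNC1, SUC2, HFM1, REC107, MSH5, HIS7, ILV1, ILV6 and the neighbours of the deleted genes and of BNA1 were chosen after their values were seen. Promoter sequences were not used here, so the planned description of motifs was not made. Alternatives tried were 2 normalizations, 2 filters on dim genes, other variance models, array weights, a replicate block, other probe set choices, stricter thresholds and leaving out each array.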

Additional observations from a re-analysis of the deposited data

Results flagged for a closer look

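For 64 of the genes that the rule names, the effect of the deacetylase deletions differed between the 2 strain pairs by the interaction test of limma and by at least 2-fold. The value given for each is the log2 difference of the combined minus the bmh mutant, less that of the deacetylase mutant minus the wild type. A negative value thus means a less positive change in the pair of combined and bmh mutants. The pairs also differed in the mating genes, so cell type and the bmh mutations cannot be told apart in this difference. Neither can marker alleles, should they differ between the strains. With 5448 genes tested, 1289 were called for this difference (23.7%). No explanation was tested for any of them.

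Among the mating genes the differences were −7.90 for MF(ALPHA)1, −6.65 for HMLALPHA1, −5.16 for AFB1, −4.93 for STE3, −3.27 for MF(ALPHA)2 and −2.78 for HMRA2. They were 5.63 for MFA2, 5.00 for STE2, 4.12 for HMRA1, 4.03 for AGA2, 2.74 for BAR1, 2.35 for MFA1, 2.05 for STE6, 1.81 for ASG7 and 1.19 for AGA1. In MF(ALPHA)1, HMLALPHA1 and HMRA1 at least 1 strain mean lay at or below the background of 4.13, where a signal has no size; with such means raised to the background the differences were −7.51, −6.34 and 3.48.

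Among the flagged genes of amino acid, purine and vitamin B6 synthesis, those that rose in the deacetylase mutant had negative differences. These were HIS4 at −2.64, ADE17 at −2.33, SNO1 at −2.32, ARG1 at −2.14, SNZ1 at −1.47, ADE1 at −1.22 and ARG4 at −1.17. The Pho85 cyclin PCL5 was at −1.08. LEU4, which rose but is not flagged, had a difference of 0.29. Flagged leucine and branched-chain genes that fell in the deacetylase mutant had positive ones, with LEU2 at 2.85, LEU1 at 2.57, OAC1 at 1.90 and BAT1 at 1.12. Such opposite signs are favoured by the choice of genes. The genes were named for large changes in the deacetylase mutant, and those changes are subtracted in the difference. The amino acid permease AGP1 was at −1.29 and the arginine catabolic gene CAR2 at 1.49. The thiamine genes THI20 and THI7 were at 1.29 and 1.05, and the sulfate genes MET14 and MET3 at 1.38 and 1.28.

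Several flagged glucose-repressed genes rose more in the pair of combined and bmh mutants. They were FDH1 at 3.28, ADH2 at 2.17, ACS1 at 1.96, HXK1 at 1.41, GPH1 at 1.34, ADY2 at 1.21, TDH1 at 1.08 and HXT7 at 1.07. Being flagged for a large difference, they do not stand for all such genes. The Adr1-dependent median was 0.85 in the deacetylase mutant and 2.03 in the combined mutant, but that of gluconeogenesis and the glyoxylate cycle was 1.62 and 1.51. MIG1, which fell less there, was at 1.26. Exceptions were CIT2 at −2.67, IDH2 at −1.54, IDH1 at −1.31 and CYC7 at −1.19.

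Iron genes were at 2.97 for FET3, 2.84 for FRE4, 1.93 for FTR1 and 1.01 for FIT3. Phosphate genes were at 2.32 for PHO5, 1.34 for PHO11 and −2.08 for GIT1. Cell surface genes were at −2.24 for PIR3, −2.21 for KDX1, −1.92 for HPF1, −1.14 for CWP1 and 1.08 for TIR1. The others were RRT5 at 1.50, HSP82 at 1.40, SPS4 at 1.25 (1.38 with means below the background raised to it), COS8 at −1.46, MRPL32 at −1.10 and YNR064C at −1.05.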

How the results depend on the processing

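The counts of genes called, higher and lower stayed within 1.5 times the reported ones in most alternatives, with exceptions as follows. When the change itself had to exceed 1.2-fold (limma's treat), 2386 genes were called in the deacetylase mutant against the wild type in place of 3892, with 1292 lower in place of 2268, and 2570 in the combined against the bmh mutant in place of 4088; that test is built to drop small changes. The counts at 2-fold were then 478 higher and 252 lower. When only the 4358 brightest genes were tested, 348 were at least 2-fold higher in the combined against the bmh mutant, in place of 549. The difference between the pairs was called for 2233 genes with array weights, 738 at adjusted p under 0.01 and 451 with treat, in place of 1289. Leaving out 1 array gave 1051 to 1962 genes for that difference, the highest without wild-type array 1, and 3630 to 4202 for the deacetylase mutant against the wild type; the cause was not tested. Centring each array on its median moved the median of all genes to −0.05 and gave 1735 higher and 2107 lower genes, and quantile normalization moved it to −0.08.

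Same-numbered arrays of the deacetylase mutant and the wild type correlated in their deviations at 0.038, −0.111 and −0.081, so the numbers were not taken as pairs. With a replicate block 3842 genes were called on all arrays and 3293 on the 6 arrays alone, with 478 higher and 253 lower at 2-fold on the 6. Without a block, 3519 genes were called when the spread came from the 6 arrays alone, in place of 3892. Of these, 478 were higher and 252 lower at 2-fold.

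Of 352 named genes, 318 were called in the same direction in all 27 alternatives that tested them, 34 lost the call in at least 1, 13 of these when an array was left out, and 0 reversed. MET2 lost it in 16, PAU2 in 15, PRM1 in 13 and SPT23 in 11. Without wild-type array 1, the difference of DIP5 was −0.39 in place of −1.02, and the fold changes of BTN2, HSP12, MET2 and STR3 grew by over 1.5 times. Of 12 early meiosis genes at least 2-fold higher, 1 was left when only the 4358 brightest genes were tested. Dim genes near the background of 4.13 limit the size of change that can be seen; means lay at or below it in both strains for 70 genes.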
